A study of Mus musculus with 57 samples.

Results

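Fabp3, Fabp5, Fabp7 and Dbi encode the fatty acid and acyl-CoA binding proteins examined here in cortical astroglia of the mouse. They were taken by gene symbol from a table of counts per gene, and they are 4 of its 21118 genes. The rule that took them used no measured value, but earlier results of these data were known when they were chosen. The samples were mice of the C57BL/6 strain that carried the transgene Aldh1l1-L10-GFP, in which sequences of Aldh1l1, an astrocyte gene, drive a fusion of GFP (green fluorescent protein) with L10, a protein of the ribosome. RNA bound to the tagged ribosomes was pulled down from cortex homogenate with an antibody to GFP (translating ribosome affinity purification, TRAP). The 53 libraries, 1 for each animal, came from animals labelled female or male at postnatal days 1, 4, 7, 14 and 35 (P1 to P35) and in adults. The female groups held 4, 4, 8, 5, 3 and 4 libraries at these 6 ages, and the male groups 4, 4, 4, 5, 3 and 5. All animals carried the transgene, and none received a treatment that sets a group apart. The design compares ages and sexes.

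Fatty acid binding proteins are small cytoplasmic proteins that hold a long-chain fatty acid inside a barrel-shaped pocket and carry it through the water of the cell to membranes, mitochondria or the nucleus. Fabp7, the brain form, is known from radial glia and young astrocytes. Fabp5, the epidermal form, occurs in several cell types of the developing brain, and Fabp3, the heart form, is known mainly from neurons in adult brain. Dbi, the diazepam binding inhibitor or acyl-CoA binding protein, binds the activated form of fatty acids, acyl-CoA esters, and is also the precursor of peptides that act on GABA-A receptors and on the mitochondrial protein Tspo. Astroglia are a known source of it.

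The libraries held between 14768178 and 48541139 counts (median 24033399). The lowest count of a member in any library was 351 for Fabp3, 4934 for Fabp5, 3517 for Fabp7 and 3451 for Dbi. All 4 passed the filter on low counts, which removed no gene. P1 female 4, P7 female 40 and P14 male 4 had fewer genes with at least 10 counts than the other 50 libraries. Aldh1l1, which marks the targeted cells, stood at 8.88 CPM (counts-per-million units) in P1 female 4 and between 34.2 and 377 CPM elsewhere. None of the 10 mature astrocyte markers was at 0 in a library, but markers of neurons, oligodendrocytes and other cells were also measured, so the pull-down was not free of their RNA. The first digit of the number in a library's name defines a replicate set (1, 2, 3, 4 or 6), and 4 P7 libraries that came from a second sequencing run alone make up set S. The labels do not say what the number marks. In 5 libraries, P7 female 10, 30 and 40, P35 male 10 and adult male 60, the number in the name has a further digit. The letter in the name and the labelled sex agree in these 5. Transcripts of the other sex were held by 6 libraries. Results are also given without the 5 or without the 6 where a call depends on them. In bulk samples, fewer cells of a type and less RNA per cell cannot be told apart.

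Fabp3 and Fabp5 have processed copies elsewhere in the genome that differ from them by few bases, which bears on how their counts can be read. Fabp3 lies on chromosome 4 (chr4:130308595-130315463, plus strand, GRCm38, GENCODE M21). Its processed pseudogene Fabp3-ps1 (chr10:86731987-86732388, minus strand) was 99.3% identical over 402 bases, and the longest stretch without a difference was 256 bases. Below are 300 bases of the coding sequence of Fabp3 and the same stretch of the copy, 5′ to 3′ in the direction of the coding strand, shown because they contain all 3 differences found. Capitals mark the differing bases, which are A40T, C297T and G334A, counted from the first coding base, with the base of Fabp3 first.
Fabp3: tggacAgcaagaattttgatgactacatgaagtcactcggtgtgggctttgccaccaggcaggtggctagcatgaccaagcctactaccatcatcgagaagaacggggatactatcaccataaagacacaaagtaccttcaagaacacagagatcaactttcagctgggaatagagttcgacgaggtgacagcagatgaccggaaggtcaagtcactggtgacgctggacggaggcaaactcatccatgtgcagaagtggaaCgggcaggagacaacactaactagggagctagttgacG
Fabp3-ps1: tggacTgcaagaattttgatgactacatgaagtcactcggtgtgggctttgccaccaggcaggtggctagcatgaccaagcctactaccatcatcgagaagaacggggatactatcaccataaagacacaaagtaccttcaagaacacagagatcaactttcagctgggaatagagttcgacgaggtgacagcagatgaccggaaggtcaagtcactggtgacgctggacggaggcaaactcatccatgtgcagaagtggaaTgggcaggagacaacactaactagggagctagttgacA

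Fabp5 lies on chromosome 3 (chr3:10012548-10016607, plus strand). Its copy Gm6166 (chr9:57483963-57484371, plus strand) was 98.3% identical over 409 aligned bases. The first 150 coding bases are given to show how long a stretch the gene and its copy share. The capital marks T9C, the only difference within them. T189C and the differences beyond the 253 bases compared without gaps lie outside the stretch.
Fabp5: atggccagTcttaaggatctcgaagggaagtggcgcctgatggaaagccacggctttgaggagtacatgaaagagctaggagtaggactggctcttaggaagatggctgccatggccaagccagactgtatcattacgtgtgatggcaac
Gm6166: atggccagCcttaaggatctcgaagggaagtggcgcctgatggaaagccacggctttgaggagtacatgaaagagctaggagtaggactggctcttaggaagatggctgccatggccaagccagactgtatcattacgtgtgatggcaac

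The counts of the copies followed those of the genes. Fabp3-ps1 had between 66.1 and 81.3% of the count of Fabp3 in each library, with a median of 73.2%. Gm6166 had between 28.6 and 42.5% of the count of Fabp5, with a median of 32.5%. Across the 53 libraries Pearson's r of log2 CPM was 0.998 for Fabp3 with its copy and 0.995 for Fabp5 with its copy, each a description of pairs that share a library. How the authors' counting treated reads that match several places is not given in the sources used here, so the levels of Fabp3 and Fabp5 are uncertain. In another fit the counts of Fabp3-ps1 were added to Fabp3, and those of Gm6166 and further processed copies to Fabp5. This choice was made after seeing the data. It moved P1 to adult of Fabp5 from -0.83 to -0.81 on the log2 scale and that of Fabp3 from -0.08 to -0.09, and it changed no call for the members. The 3′ end of Fabp3 also overlaps 81 bases of Zcchc17 on the other strand. Without the strand setting, reads of such a stretch cannot be assigned to either gene. The search for copies covered annotated transcripts only and did not take in every chromosome, so it cannot show that a copy is absent. Within these limits it found no copy of Fabp7. The copy of Dbi that it found, Gm12222, had at most 0.178% of the count of Dbi in any library.

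**Figure D1:**
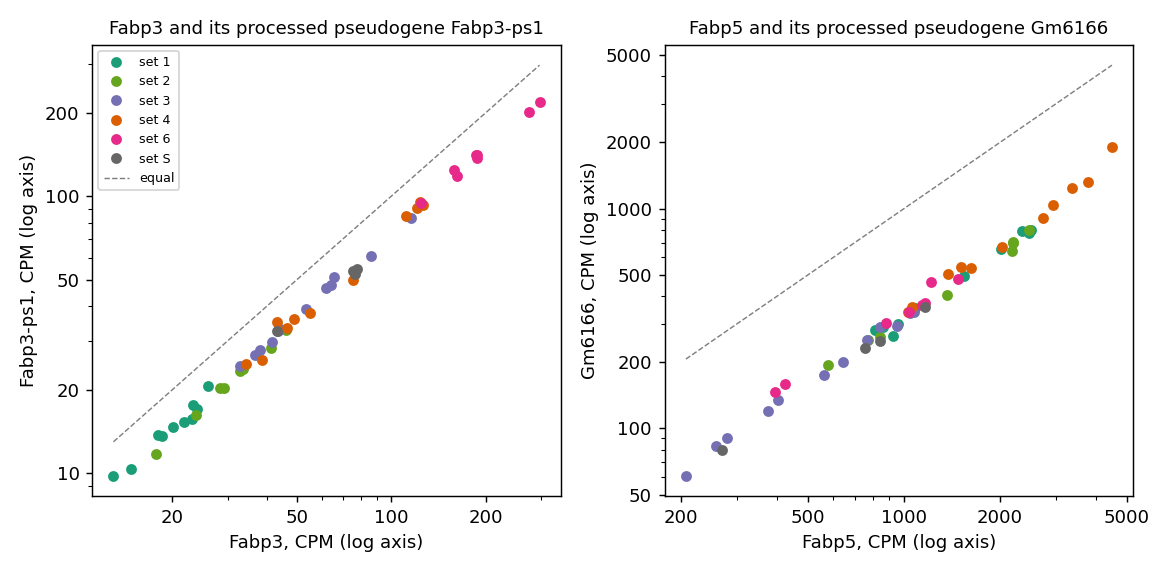
CPM of Fabp3 against its processed pseudogene Fabp3-ps1 (left) and of Fabp5 against Gm6166 (right), 1 point for each of the 53 libraries, coloured by replicate set, on log axes, with a dashed line of equal values. The points run parallel to and below the line, since Fabp3-ps1 had 66.1 to 81.3% of the count of Fabp3 and Gm6166 28.6 to 42.5% of that of Fabp5.

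Fabp7 was high in the first postnatal week and low from P35 on. All levels below are CPM on library sizes scaled by the trimmed mean of M values (TMM). The lowest, median and highest library stood at 3324, 11637 and 19191 CPM at P1 (n = 8) and at 5832, 18358 and 25877 CPM at P4 (n = 8). At P7 they stood at 465.5, 6236 and 18367 CPM (n = 12), and at P14 at 544, 2316 and 6129 CPM (n = 10). They were 204, 642 and 1762 CPM at P35 (n = 6) and 136, 819 and 1380 CPM in adults (n = 9). Every P1 and every P4 library was above every P35 and every adult library, while P7 and P14 overlapped with both younger and older ages. The share of all genes whose libraries separate in this way is not given here.

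Between P1 and adulthood Fabp7 fell by 4.09 on the log2 scale (SE 0.47), a 17.0-fold lower level, with an adjusted p of 2.5e-09. This and all adjusted p-values are Benjamini-Hochberg values over 21118 genes from the quasi-likelihood F test of edgeR, with the replicate set in the model and the labelled sexes averaged, and the threshold is 0.05. Of the members, 2 passed this test, both lower in adults, where 19.5% of all genes were lower and 21.8% were higher. The fit called here without the replicate set does not separate sets 1, 2, 3, 4 and 6, but it keeps a term for set S. In that fit 13.4% of all genes were lower, and Fabp7 was lower by a similar amount, -3.88 ± 0.62 (SE, adjusted p = 5.9e-06 with edgeR). Within each of sets 1, 2, 3, 4 and 6, the adult mean of log2 CPM was below that of P1, by differences from -5.12 to -3.60. These sets held at most 2 libraries at an age, here and in the other values within sets. The -5.12 of set 6 compares 1 adult with 1 P1 library.

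The steps that passed the test lay between P7 and P35. From P7 to P14 Fabp7 changed by -1.52 ± 0.45 (SE, adjusted p = 0.048, edgeR), when 1.65% of all genes were lower and 1.65% were higher (349 higher and 348 lower, against 482 and 268 with DESeq2 size factors). From P14 to P35 it changed by -2.01 ± 0.50 (SE, adjusted p = 0.031, edgeR), when 0.81% of genes were lower and 0.336% higher. Both values stand close to the threshold and missed it without the 5 libraries with a further digit in their number. There they were -1.10 (adjusted p = 0.24, edgeR) and -1.84 (0.11). The first also missed it with DESeq2 size factors (0.052) and without the 3 libraries with few genes (0.066), and the second with limma-voom (0.11) and without the 6 libraries with transcripts of the other sex (0.12). Within sets, P14 was below P7 in 4 of 5 and above it by 0.63 in set 6, and P35 was below P14 in 4 of 4. Without the replicate set in the model neither step passed edgeR's test (adjusted p = 0.29 and 0.49), and in that fit 0% and 0.0237% of all genes were lower. The earlier steps were 0.49 ± 0.43 from P1 to P4 and -0.89 ± 0.45 from P4 to P7, and the last was -0.15 ± 0.46 from P35 to adult (SE), and none of these passed the test.

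P7 and P14 held libraries of the same age that lay far apart for Fabp7. P7 female 3 stood at 1197 CPM and P7 female 30, of the same set, at 14886 CPM. Their summed immature neuron markers were 5012 and 5059 CPM and their summed mature astrocyte markers 1465 and 1471 CPM, while radial glia markers summed to 565 and 913 CPM and mature neuron markers to 4697 and 3711 CPM. P7 male S2, at 465.5 CPM, was below all P14 libraries. P14 male 6 had 6129 CPM, the highest at its age, and the summed level of the 10 immature neuron markers was also the highest of P14 there, at 6608 CPM, against a median of 867 CPM at that age, and its mature astrocyte sum was the lowest, at 1703 CPM. The part of these markers in the result was not tested. Without P14 male 6 the step from P7 to P14 was -2.11 on the log2 scale (adjusted p = 0.00036, edgeR), and without P7 male 2 it was -0.998 (adjusted p = 0.39, edgeR).

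Because the data bear on how Fabp7 changes with age, the stretch before its start is given. It runs 208 bases from the beginning of the RefSeq promoter window to the base before the gene's start in GENCODE (chr10:57784673-57784880, plus strand, RefSeq on GRCm38.p6). Capitals mark 2 matches to CCAAT and 1 to AGGTCA, each searched on both strands, and all 3 read on the other strand here.
Fabp7: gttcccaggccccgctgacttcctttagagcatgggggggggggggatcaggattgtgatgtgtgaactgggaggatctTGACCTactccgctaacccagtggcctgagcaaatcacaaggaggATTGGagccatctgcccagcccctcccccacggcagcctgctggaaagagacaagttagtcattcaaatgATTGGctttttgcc

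CCAAT is the core of the box bound by NF-Y, and AGGTCA is an element that many nuclear receptors recognise. Of 27025 promoter windows of 300 bases in that table, 37.9% held CCAAT, 16.0% AGGTCA and 14.2% TATAAA. The window of Dbi held 1 CCAAT and neither of the others, and that of Fabp3 held none of the 3. The motifs do not overlap one another in the window of Fabp7. These matches describe letters in a window and show neither binding nor its absence.

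**Figure D2:**
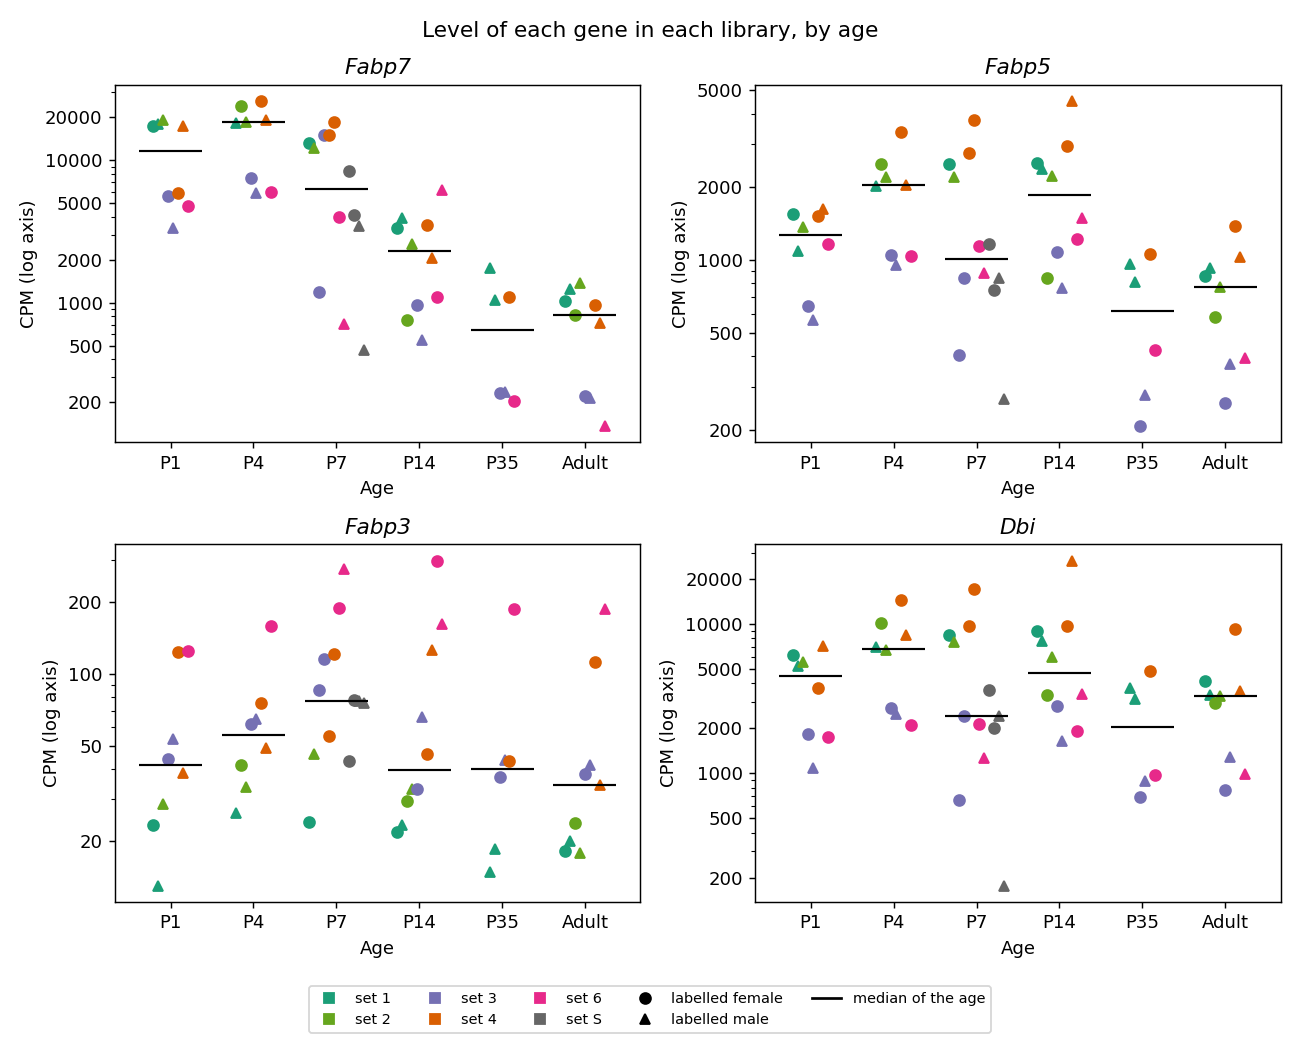
Level of Fabp7, Fabp5, Fabp3 and Dbi in each of the 53 libraries by age, in CPM on log axes, coloured by replicate set, with circles for labelled females, triangles for labelled males and a line at the median of each age. Fabp7 is at 3324 to 19191 CPM at P1 and 136 to 1380 CPM in adults, and the 8 libraries of set 6 lie at 124 to 297 CPM for Fabp3.

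Fabp5, the epidermal form, had its highest medians at P4 and P14 and was lower in adults than at P1. The lowest, median and highest library stood at 563, 1264 and 1621 CPM at P1 and at 954, 2022 and 3369 CPM at P4. They stood at 267, 1011 and 3777 CPM at P7 and at 765, 1842 and 4497 CPM at P14. At P35 they were 207, 616 and 1058 CPM, and in adults 257, 773 and 1372 CPM. Libraries of every pair of ages overlapped.

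Adult Fabp5 was lower than at P1 by a log2 difference of -0.83 ± 0.20 (SE, adjusted p = 0.00087, edgeR), a 1.78-fold lower level. The drop lay between P14 and P35, at -1.62 ± 0.23 (SE, adjusted p = 4.7e-05, edgeR), or 3.07-fold. All 4 sets with libraries at both ages were lower at P35, with differences of mean log2 CPM from -1.92 to -1.46. Without the replicate set in the model the estimates were -0.70 for P1 to adult and -1.67 for P14 to P35, and neither passed edgeR's test (adjusted p = 0.20 and 0.24). The other steps of Fabp5 were 0.65 ± 0.21 from P1 to P4 (SE, adjusted p = 0.14, edgeR), -0.22 ± 0.21 from P4 to P7, 0.24 ± 0.20 from P7 to P14 and 0.11 ± 0.22 from P35 to adult, and none of them passed. At P1 to P4, 0.242% of all genes were higher and 0.199% lower, and at P4 to P7 1.25% were higher and 0.417% lower.

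Dbi, the acyl-CoA binding protein, was lower at P35 than at P14. The lowest, median and highest library stood at 1084, 4472 and 7081 CPM at P1 and at 2107, 6826 and 14550 CPM at P4. They stood at 177, 2412 and 17199 CPM at P7, where P7 male S2 was lowest, and at 1635, 4708 and 26470 CPM at P14, where P14 male 4 was highest. At P35 they were 694, 2045 and 4801 CPM, and in adults 773, 3310 and 9176 CPM. Libraries of every pair of ages overlapped.

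Dbi was lower at P35 than at P14 by a log2 difference of -1.41 ± 0.34 (SE, adjusted p = 0.028, edgeR), or 2.65-fold, and all 4 sets with libraries at both ages were lower at P35, by -1.73 to -1.28. This step did not pass without the replicate set in the model (-1.56 ± 0.66, SE, adjusted p = 0.57, edgeR). It also missed the threshold without the 5 libraries with a further digit in their number (-1.37 ± 0.39, adjusted p = 0.13, edgeR). Adult and P1 Dbi differed by -0.46 ± 0.30 (SE, adjusted p = 0.23, edgeR), with a 95% interval from -1.05 to 0.13, and the sets did not all point one way, since 4 of 5 were lower in adults and set 4 was higher. The remaining steps were 0.69 ± 0.31 from P1 to P4 (SE, adjusted p = 0.37, edgeR), -0.35 ± 0.32 from P4 to P7, 0.37 ± 0.31 from P7 to P14 and 0.24 ± 0.33 from P35 to adult, and none passed. The mean log2 CPM of Dbi was higher at P4 than at P1 in all 5 sets. From P35 to adult, 0% of genes were higher and 0% lower with edgeR, with 884 genes at an unadjusted p under 0.05 and 114 called by DESeq2.

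Fabp3, the heart form, had the lowest median CPM of the members at every age, and none of its steps between ages passed the test. The lowest, median and highest library stood at 13.0, 41.3 and 124 CPM at P1 and at 26.0, 55.3 and 159 CPM at P4. They stood at 24.0, 77.2 and 276 CPM at P7 and at 21.7, 39.6 and 297 CPM at P14. At P35 they were 14.8, 39.9 and 186 CPM, and in adults 17.7, 34.3 and 187 CPM. Adult and P1 Fabp3 differed by -0.08 ± 0.22 on the log2 scale (SE, adjusted p = 0.80, edgeR), with a 95% interval from -0.52 to 0.36, and the steps ran from -0.48 ± 0.24 (P14 to P35) to 0.44 ± 0.24 (P4 to P7).

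In 1 test over all 5 steps between the 6 ages, every member passed, with adjusted p-values of 2.1e-11 for Fabp7, 3e-09 for Fabp5, 0.00068 for Dbi and 0.033 for Fabp3 (edgeR). The background was high, since 43.5% of all genes passed. Without the replicate set 24.9% of all genes passed, and Fabp7 (adjusted p = 6.8e-08) and Fabp5 (0.0049) did so, but Dbi (0.26) and Fabp3 (0.28) did not, also with edgeR. The result of Fabp3 was near the threshold under other choices too: it was lost with DESeq2 size factors (0.070), with DESeq2 (0.0504) and with limma-voom (0.13).

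**Figure D3:**
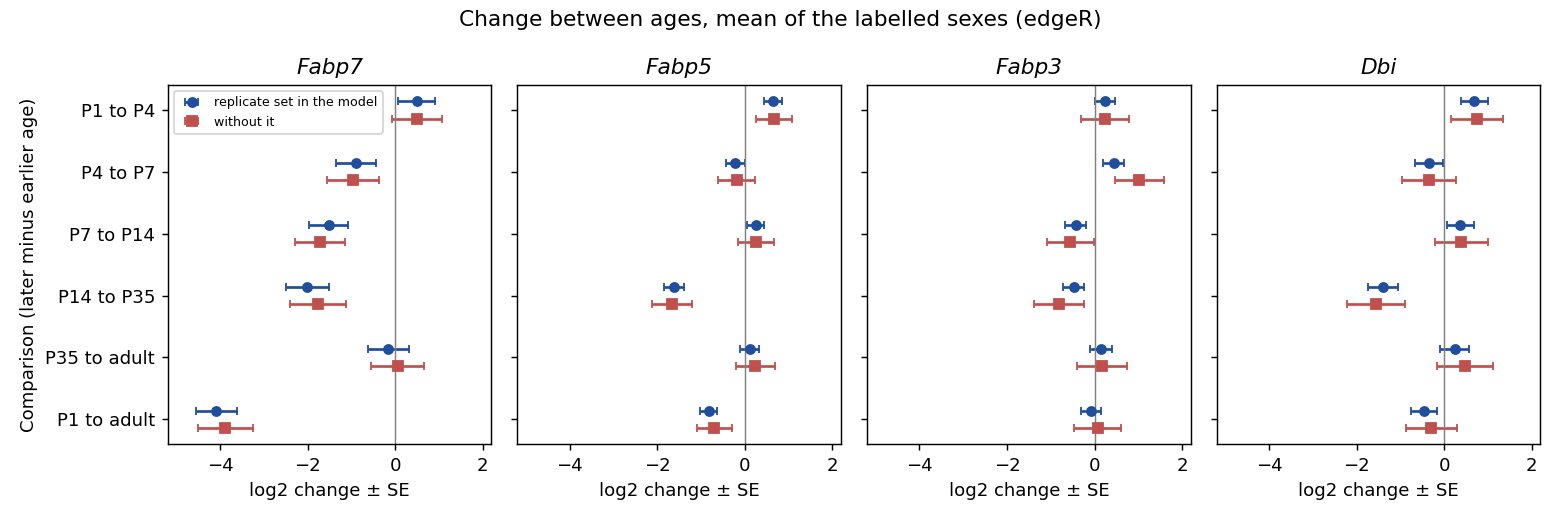
Log2 change of each gene for 5 steps between neighbouring ages and for P1 to adult, with SE, from edgeR with the replicate set in the model (blue circles) and without it (red squares). The P14 to P35 step is -2.01 for Fabp7, -1.62 for Fabp5 and -1.41 for Dbi with the set, and the red intervals are wider. The fit shown in red kept a term for set S.

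Compared per kilobase of the main transcript, the order of the members changed with age. At P1 the levels in CPM per kilobase were 14212 ± 8768 for Fabp7, 7129 ± 4024 for Dbi, 1203 ± 411 for Fabp5 and 68.1 ± 53.0 for Fabp3 (SD, n = 8). In adults they were 5761 ± 4446 for Dbi, 932 ± 577 for Fabp7, 739 ± 366 for Fabp5 and 66.5 ± 70.1 for Fabp3 (SD, n = 9). Fabp7 was above Dbi in 8 of 8 libraries at P1 and at P4, in 10 of 12 at P7, in 1 of 10 at P14, and in none of 6 at P35 or 9 in adults. Fabp5 and Fabp7 were close in adults, where Fabp5 was higher in 4 of 9 libraries. The transcripts used were 823 bases for Fabp3, 987 for Fabp5, 804 for Fabp7 and 569 for Dbi. With the union of all annotated exons, 3567 bases for Fabp5 and 1422 for Dbi, Fabp5 was higher than Fabp7 in 1 of 9 adult libraries.

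The replicate sets differed in all 4 members. In 1 test over the 5 set terms, adjusted p-values were 8e-14 for Fabp3, 9.2e-12 for Fabp5, 4.7e-11 for Dbi and 4.2e-05 for Fabp7 (edgeR), where 69.1% of all genes passed. Fabp3 stood at 13.0 to 26.0 CPM in the 10 libraries of set 1 and at 124 to 297 CPM in the 8 of set 6, without overlap. How large a share of all genes lacks overlap between these sets is not given here. Set 6 exceeded set 1 in Fabp3 by 3.17 ± 0.25 on the log2 scale (SE, adjusted p = 3.7e-12, edgeR), or 9.03-fold, and 34.3% of all genes differed between these sets. Set 4 was above set 1 by 1.76 ± 0.22, set 3 by 1.40 ± 0.21 and set S by 1.15 ± 0.33, where 17.9%, 53% and 32.6% of all genes differed, and all 3 passed for Fabp3 (SE, adjusted p = 3.1e-06, 4.4e-07 and 0.0060, edgeR). The libraries with few detected genes, P1 female 4, P7 female 40 and P14 male 4, all belong to set 4. They stood highest there for Fabp3, at 123, 121 and 126 CPM, against a median of 55.0 and a lowest value of 34.3 CPM in set 4. The difference of set 4 without them is not given here. Zcchc17, the gene that overlaps Fabp3, stood at 167 to 295 CPM in set 1 and 145 to 374 CPM in set 6. Between sets 2 and 1, 0% of genes differed with edgeR, with 1126 at an unadjusted p under 0.05.

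The other members were lower in the sets where Fabp3 was higher, except in set 4. Dbi differed from set 1 by -1.96 ± 0.28 in set 3, -1.86 ± 0.33 in set 6 and -1.80 ± 0.46 in set S. Fabp7 differed by -1.92 ± 0.39, -1.65 ± 0.47 and -1.83 ± 0.65 in these sets, and Fabp5 by -1.47 ± 0.18, -0.91 ± 0.21 and -1.46 ± 0.30 (SE). All 9 of these passed the test, and in set 4 none of Dbi, Fabp5 and Fabp7 did. Markers moved with the sets. Of the 10 mature astrocyte markers, 10 were lower in set 3, 10 in set 6, 8 in set S and 6 in set 4 than in set 1. Of the 10 mature neuron markers, 10, 10, 8 and 4 were higher in those sets, and of the 10 immature neuron markers 5, 6, 6 and 3. Of the 9 radial glia markers 6, 8, 5 and 3 were lower, and their sums did not overlap between set 1 (1945 to 2850 CPM) and set 6 (408 to 790 CPM). The summed mature astrocyte markers ranged from 3132 to 18931 CPM in set 1 and from 543 to 3574 CPM in set 6, and the summed immature neuron markers from 486 to 4388 and from 2455 to 9652 CPM. In either direction, 53%, 34.3%, 32.6% and 17.9% of all genes differed from set 1 in sets 3, 6, S and 4. The part of the markers in the differences between sets was not tested.

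**Figure D4:**
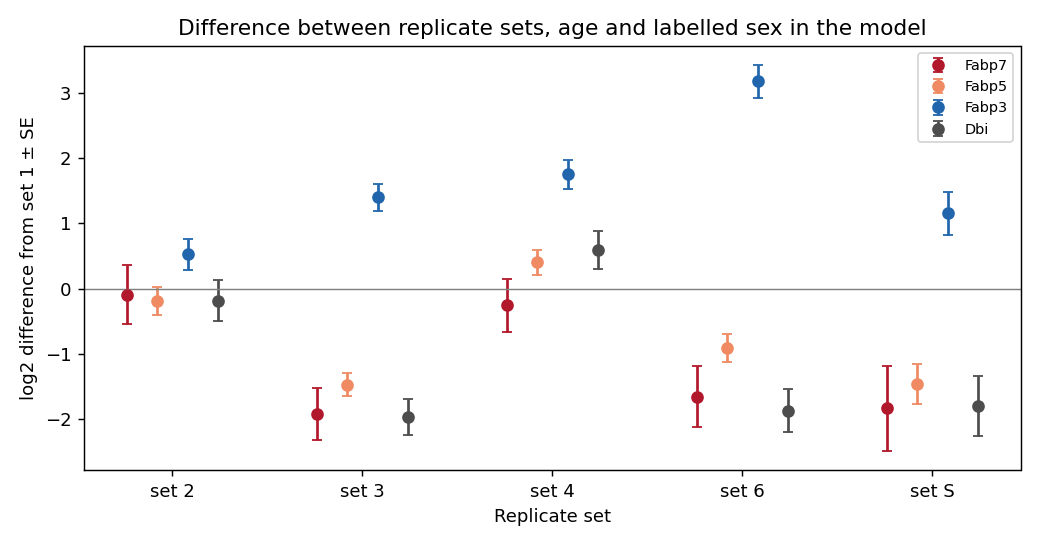
Log2 difference of each gene between each replicate set and set 1, with SE, from the edgeR fit with age and labelled sex in the model. Fabp3 is 3.17 above set 1 in set 6, while Dbi is at -1.86 there and at -1.96 in set 3.

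Marker sums also moved with age, and this stands beside the change of Fabp7 and Fabp5. From P1 to adult, 9 of 10 mature astrocyte markers, 9 of 10 mature neuron markers and 8 of 8 oligodendrocyte and myelin markers rose, and 10 of 10 immature neuron markers fell. The summed immature neuron markers ranged from 2561 to 12661 CPM at P1 and from 501 to 2623 CPM in adults, and the summed mature astrocyte markers from 543 to 4320 and from 3574 to 23124 CPM. Of the 9 radial glia markers, 3 rose and 4 fell, and of the 5 ependymal markers 4 fell. Of the 6 oligodendrocyte precursor markers 2 rose and 2 fell, of the 8 microglia markers 3 rose, of the 8 endothelial markers 2 rose and 1 fell, of the 6 mural cell markers 1 fell, and of the 5 red blood cell genes none passed. Over the same ages 21.8% of all genes rose and 19.5% fell, and several of these counts lie near those shares. The part of the markers in the change of Fabp7 and Fabp5 was not tested.

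No difference between labelled sexes passed the test in any member. As a mean over the 6 ages, females minus males was 0.12 ± 0.18 for Dbi, 0.06 ± 0.14 for Fabp3, 0.05 ± 0.12 for Fabp5 and 0.05 ± 0.26 for Fabp7 on the log2 scale (SE, all adjusted p = 1, edgeR), and 0.0284% of all genes passed (6 genes, against 101 with DESeq2). The 95% interval for Fabp7 ran from -0.46 to 0.55. The adult level of Fabp7 differed from P1 by -3.96 ± 0.69 in females and -4.21 ± 0.63 in males (SE). A test of whether the steps differed between labelled sexes passed for no member (adjusted p = 1, edgeR) and for 0% of genes, with 778 at an unadjusted p under 0.05 and 0 called by limma-voom. For a difference between labelled sexes in P1 to adult alone, edgeR called 0 genes and DESeq2 called 134. The P1 groups were uneven for Fabp7: P1 females stood at 4751, 5619, 5867 and 17406 CPM, and P1 males at 3324, 17461, 17794 and 19191 CPM.

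The genes whose levels ran most closely with each member, over the 53 libraries and among 11111 genes with a mean of at least 5 CPM, were found by Pearson's r of log2 CPM. For Fabp7 they were Cdca3 (0.94), Cks2 (0.93) and Traf4 (0.92). For Fabp5 they were Dbi (0.92), Polr2d (0.91) and Hacd1 (0.90), and for Dbi Rhoc (0.94), Rps27l (0.93) and Emg1 (0.93). For Fabp3 its copy Fabp3-ps1 came first, followed by Stmn3 (0.95) and Fbll1 (0.91). Once the groups and replicate sets were subtracted, they were Lsm6 (0.77), Hmgb2 (0.75) and Cks2 (0.75) for Fabp7, Dbi (0.89), Aamdc (0.87) and Lsm6 (0.87) for Fabp5, and Gng5 (0.95), H2afv (0.92) and S100a16 (0.92) for Dbi. Fabp3 kept Fabp3-ps1 and Stmn3 (0.91) as its first 2, with Rltpr (0.84) as the third. These are descriptions over libraries that share depth, sets and ages.

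Among the members, Fabp5 and Dbi had the highest correlation, 0.92 over all libraries and 0.89 after groups and sets were subtracted. The copy Gm6166, which the comparison left out with the other predicted genes, stood above Dbi for Fabp5, at 0.995 and 0.982. Fabp7 correlated with Fabp5 at 0.73 and with Dbi at 0.65, and after subtraction at 0.66 and 0.67. Fabp3 correlated with Fabp5, Fabp7 and Dbi at -0.04, -0.11 and -0.25 over all libraries, and at 0.02, -0.19 and 0.02 after subtraction.

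More of the other genes of fatty acid handling rose than fell with age. Of 81 measured genes in 9 lists, 34 rose and 13 fell between P1 and adulthood, and their median log2 change was 0.59, against 0.06 over all 21118 genes, of which 21.8% rose and 19.5% fell. The counts of the single lists are to be read against these shares, and several lie near them. Leaving the set out of the model, 25 rose and 7 fell, where 14.6% of all genes rose and 13.4% fell. These lists were chosen with earlier results known, and no test of a list was made. From P7 to P14, when 1.65% of all genes rose, 8 of the 81 rose and 0 fell, but 0 rose without the replicate set, where 0.0189% of all genes did.

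Among the other proteins that bind lipids in the cytoplasm, 2 of 5 fell, and none rose. Crabp1, which binds retinoic acid, fell from 36.5 ± 27.8 CPM at P1 to 1.45 ± 0.997 CPM in adults (SD, n = 8 and 9), a log2 difference of -4.35 ± 0.48 (SE, adjusted p = 1e-09, edgeR). Rbp2, the second, was under 1 CPM at both ages. Of the other acyl-CoA binding proteins 3 of 8 rose and none fell. Acbd4, a protein with an acyl-CoA binding domain, rose by 1.94 ± 0.17 (SE, adjusted p = 7.6e-12, edgeR), Scp2, a sterol carrier, by 0.67 ± 0.16 (adjusted p = 0.00070), and Dbil5, a testis relative of Dbi, was at 0.296 ± 0.162 CPM at P1 and 1.53 ± 0.692 CPM in adults (SD). Of 7 genes of fatty acid uptake, 2 rose and 2 fell. Mfsd2a, a transporter of lysophosphatidylcholine carrying docosahexaenoic acid, rose by 1.39 ± 0.43 and Slc27a1, a fatty acid transport protein, by 0.82 ± 0.30, while Slc27a3 fell by 3.22 on the log2 scale (SE 0.61), from 7.69 ± 4.29 to 0.929 ± 1.004 CPM (SD). Slc27a6 was under 1 CPM.

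Acyl-CoA synthetases, which make the ligands of Dbi, were mostly higher in adults, where 7 of 9 rose and none fell. Acsbg1 rose from 120 ± 78.7 to 569 ± 242 CPM (SD, n = 8 and 9), a log2 change of 2.35 ± 0.22 (SE, adjusted p = 2.1e-11, edgeR). Acsl6, which favours polyunsaturated fatty acids, rose by 2.03 ± 0.30, Acsl3 by 2.13 ± 0.41 and Acsf2 by 1.84 ± 0.41 (SE). Of 8 thioesterases, which split acyl-CoA, 3 rose and 1 fell. Acot11 rose by 4.13 ± 0.47, Acot13 by 1.75 ± 0.21 and Acot8 by 1.56 ± 0.35, while Acot1 fell by 1.52 on the log2 scale (SE 0.33), from 198 ± 112 to 72.1 ± 30.1 CPM (SD).

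Of 14 genes of fatty acid synthesis, elongation and desaturation, 5 rose and 4 fell. The desaturases Scd1 and Scd2 rose by 1.22 ± 0.25 and 0.95 ± 0.18 (SE). Those that fell were the elongases Elovl6 (-1.002 ± 0.202) and Elovl4 (-0.73 ± 0.22), the fatty acid synthase Fasn (-0.64 ± 0.21) and the acetyl-CoA carboxylase Acaca (-0.55 ± 0.19). Without the replicate set, only 3 of the 14 passed in either direction, 2 higher and 1 lower. Of 13 genes of triglyceride storage, 5 rose and 2 fell: Mgll, which cleaves monoacylglycerols, rose by 3.40 ± 0.24, G0s2, an inhibitor of the lipase Pnpla2, by 2.46 ± 0.33, Plin3, a lipid droplet coat protein, by 1.55 ± 0.21 and Pnpla2 by 1.40 ± 0.23. Dgat1 fell by 0.61 and Hilpda by 0.47 on the log2 scale (SE 0.24 and 0.18).

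In the fit that leaves out the set, Rbp2, Scp2, Slc27a1, Scd1, Elovl4, Acaca, Fasn, Dgat1, Hilpda, Nr1h2 and Gabrg1 did not pass (adjusted p from 0.059 to 0.28, edgeR).

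Of 9 nuclear receptors and coactivators that respond to lipids, 6 rose and 1 fell. Nr1h3 rose by 2.44 ± 0.38, Ppargc1a by 1.44 ± 0.24 and Nr1h2 by 0.85 ± 0.15, and Pparg was at 0.185 ± 0.185 CPM at P1 and 4.27 ± 3.27 CPM in adults (SD). Rxrg fell by 1.60 on the log2 scale (SE 0.40). Of 8 genes for the sites where peptides of Dbi act, 3 rose and 1 fell. Tspo rose by 1.44 ± 0.25, the GABA-A receptor subunit Gabrg1 by 1.43 ± 0.49 (SE), and Gabra5 fell by 1.08 on the log2 scale (SE 0.25). Mature neuron markers rose with them (9 of 10), and their part in the receptor subunits was not tested.

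**Figure D5:**
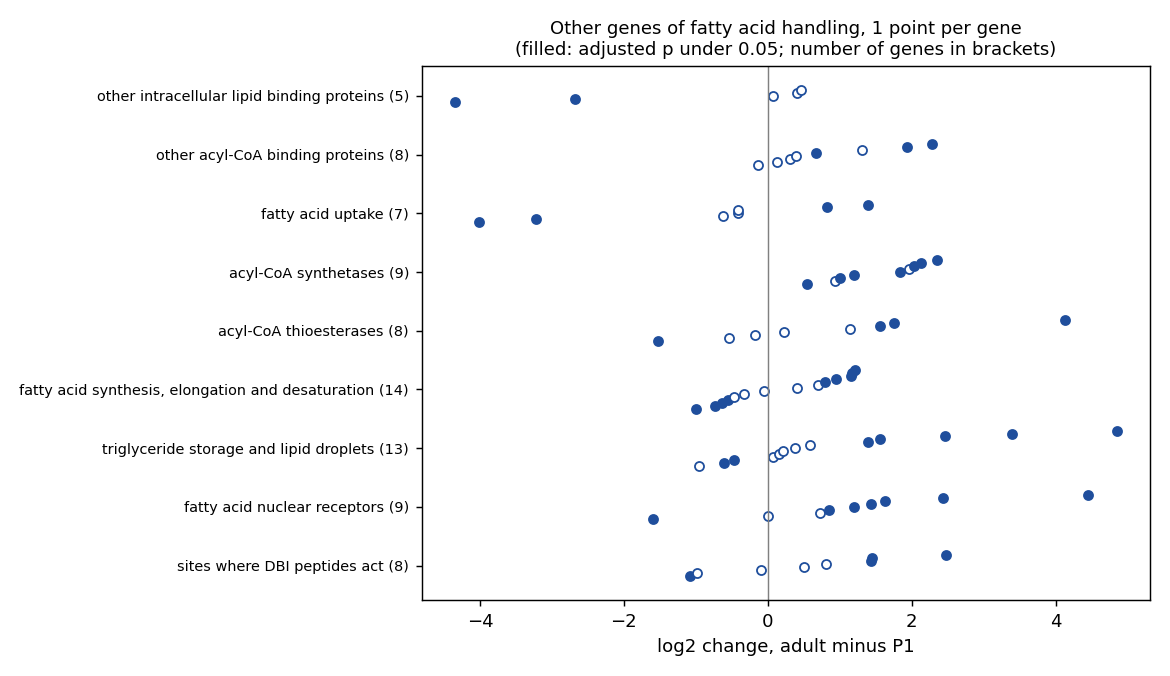
Log2 change from P1 to adult of 81 other genes of fatty acid handling in 9 lists, 1 point for each gene, filled where the adjusted p is under 0.05. Of the filled points 34 lie above 0 and 13 below, and acyl-CoA synthetases have 7 of 9 filled, all above 0.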

How the data were processed

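The values used are counts per gene as deposited by the authors, raw and not normalized, for 53 libraries, with each column holding 1 animal; 4 P7 animals sequenced in 2 runs (per the labels) have 1 column each. CASAVA, HISAT2, SAMtools and featureCounts on GRCm38.p5 are named, without versions, in the submitters' processing notes; the strand setting, the treatment of reads that match several places and the annotation release were not given in the sources used here.

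Counts were fitted with edgeR 4.0.16 (R 4.3.3, TMM, quasi-likelihood F test, robust) in 1 model of the 12 groups and the replicate set; edgeR's low-count filter removed no gene. The SE is the log2 change divided by the square root of F, and 95% intervals use the normal approximation. CPM are means ± SD over libraries. Alternatives used limma 3.58.1 and DESeq2 1.42.0; leave-one-out fits kept the dispersion trend of all libraries. The script was tested on simulated data.

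The set is in the model because the rule that chose the genes has it there. The fit without the replicate set, or block, kept a term for set S alone. Over 223 pairs of libraries of 1 set in different groups, deviations from group means correlated with a median r of 0.35 (-0.15 to 0.71), against -0.08 between sets, and 42 of 53 libraries were most like one of their own set. Nothing says that libraries came from separate litters or days, so p-values measure the spread between these libraries.

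The genes and lists were chosen with earlier results of these data known. Named genes were the 4 members, up to 4 of each pathway list by adjusted p in P1 to adult plus those opposite to the list's majority, and the 3 most like each member; predicted genes were left out of the last. Gene positions and sequences came from GENCODE M21, where 21021 of 21118 identifiers were found, and promoters from RefSeq. 1 gene that this rule names is not reported here.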

Additional observations from a re-analysis of the deposited data

Results flagged for a closer look

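Of 40 combinations of a member and a group of 4 to 8 libraries, 8 had 1 library at the end of the range that stood apart from the rest by more than Dixon's 95% limit. Chance flags about 1 in 20 such combinations when libraries of a group are alike, but each group mixes replicate sets, which differed in all 4 members.

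Fabp3 was at 187 CPM in adult male 60, against 17.7 to 41.6 CPM in the other 4 adult males, at 297 CPM in P14 female 6, against 21.7 to 46.3 CPM, and at 276 CPM in P7 male 6, against 46.1 to 76.6 CPM. All 3 of these libraries belong to set 6. Fabp7 was at 17406 CPM in P1 female 1, against 4751 to 5867 CPM in the other P1 females, at 3324 CPM in P1 male 3, against 17461 to 19191 CPM, and at 5832 CPM in P4 male 3, against 18101 to 18987 CPM. Fabp5 was at 954 CPM in P4 male 3, against 2017 to 2188 CPM. P1 male 3 and P4 male 3 belong to set 3, which differed from set 1 by -1.92 for Fabp7 and -1.47 for Fabp5 on the log2 scale. Dbi was at 26470 CPM in P14 male 4, one of the 3 libraries with few detected genes, against 1635 to 7643 CPM in the other P14 males. The cause of these values was not tested.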

How the results depend on the processing

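The fall of Fabp7 from P1 to adult kept its direction and passed in every alternative, between -4.27 and -3.88 on the log2 scale, and from -4.22 to -3.97 when each of the 53 libraries was left out in turn. Without the replicate block, Fabp5 from P1 to adult went to -0.70 (adjusted p = 0.20), and over all ages Dbi (adjusted p = 0.26), Fabp3 (0.28) and the count of genes, 5248 in place of 9190, moved. Fabp3 over all ages also missed the threshold with DESeq2 size factors (0.070), DESeq2 (0.0504), limma-voom (0.13) and without the 5 libraries with a further digit in their number (0.16). With a library left out, that value ran from 0.0077 to 0.074, and 11 libraries ended the call.

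Leaving out each library gave Fabp5 -0.95 to -0.74, Fabp3 -0.32 to 0.10 and Dbi -0.64 to -0.39 from P1 to adult. The P14 to P35 call of Dbi was lost without any of 10 libraries of P14 or P35 (adjusted p up to 0.11) and that of Fabp7 without any of 8 of these ages (up to 0.13), while Fabp5 kept its call. The P7 to P14 call of Fabp7 was lost without any of 40 libraries (-2.11 to -0.998 over all 53). Counts of genes in single steps moved by over 1.5 times: without the block they were 0, 32, 4 and 5 for the first 4 steps, against 93, 352, 697 and 242, and with DESeq2 670, 912, 1587 and 778. With 1 library left out they ran from 19 to 418, 29 to 777, 72 to 1566 and 46 to 616, so the shares of all genes called in single steps are imprecise. From P7 to P14, 349 genes were higher and 348 lower with TMM, and 482 and 268 with DESeq2 size factors. DESeq2's likelihood ratio test of the sex by step terms was not run. Counts of the members were at least 351 in every library. Such a minimum cannot show whether the few detected genes of P1 female 4, P7 female 40 and P14 male 4 bear on their CPM.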
